A study of Mus musculus with 24 samples.

Results

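Elongating RNA polymerase II (Pol II) was described at 3435 genomic regions that lay outside the chromatin marks of both gene bodies and promoters, out of 30111 regions where it was called at all. The regions came from chromatin immunoprecipitation and sequencing (ChIP-seq) with an antibody against the form of Pol II whose C-terminal domain is phosphorylated on serine 2 (Ser2P). Overlapping Ser2P peaks of 4 libraries were merged, and a merged region was kept where it touched no H3K36me3 peak of any library, lay 2500 bp or more from every H3K4me3 peak, and held at least 1 Ser2P peak with a score of 100 or more. Of the remaining Ser2P regions, 12861 lay on H3K36me3, 1934 lay near H3K4me3 but off H3K36me3, and 11881 lay off both with every score under 100. The score is the peak caller's value, which ran from 50 to a ceiling near 3100. The kept regions, called members here, were 368 to 34353 bp wide with a median of 2547 bp, and their highest score had a median of 197. A member just inside the score limit had 100.05 and a region just outside had 99.96. In all, 379 members had a top score between 100 and 110, while 503 regions that passed the position criteria scored between 90 and 100.

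Serine 2 phosphorylation marks polymerase that has left the promoter and is making RNA along a transcription unit. H3K36me3 is laid down behind that polymerase over gene bodies, and H3K4me3 sits at promoters. Transcription outside both marks can come from enhancers, where it is usually short and stops early, or from polymerase that continues past the end of a gene. WDR82, the protein whose message the hairpin targets, belongs to the SET1 complexes, which methylate histone H3 at lysine 4, and to a phosphatase complex with PNUTS that has been linked to transcription termination. The title of the series concerns early termination at cis-regulatory elements, so the question for these regions is how far Ser2P is called there when WDR82 is depleted.

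The cells were bone marrow-derived macrophages of FVB/Hsd mice, grown from marrow in culture and used on day 7 of differentiation. All had been infected with retrovirus and selected with puromycin. They carried either a short hairpin against Wdr82 (shWdr82; a single hairpin, as far as the titles tell) or a control construct, and were left untreated or given 10 ng/ml of lipopolysaccharide (LPS), the bacterial cell wall component that activates macrophages through TLR4. For Ser2P, total Pol II, H3K4me1 and H3K36me3 the control was a scrambled hairpin and the titles give 45 min of LPS. For H3K4me3 and H3K27ac it was the empty LMP vector and the titles give 4 h, whereas the protocol text gives 4 h for all. Each of the 24 groups had 1 library, so there is no spread between replicates and no test between groups. The intervals given are 95% and cover counting error only, and neighbouring regions are not independent. Peak lists show neither the level of Wdr82 RNA nor macrophage marker RNAs, so the knockdown and the cell type were not checked.

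The Ser2P lists held 14420 to 16744 peaks and covered 43.0 to 46.05 Mb in 3 libraries and 60.6 Mb in the shWdr82 LPS library, which also had the most peaks at the score ceiling (1087, against 417 to 868). Total Pol II lists held 21891 to 32385 peaks. Read depth is not given in the sources used here. A longer or wider list can come from depth, from enrichment or from the cells, and these cannot be told apart with 1 library per group.

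The shWdr82 LPS library held a Ser2P peak at most of the members, and each of the other libraries at about 1 member in 3. A peak was called at 1030 members in the scrambled untreated library (30.0%, exact Clopper-Pearson interval 28.5 to 31.6), at 1195 in scrambled LPS (34.8%, 33.2 to 36.4), at 1235 in shWdr82 untreated (36.0%, 34.4 to 37.6) and at 2630 in shWdr82 LPS (76.6%, 75.1 to 78.0). The DNA under these peaks summed to 2.40 Mb in scrambled untreated, 2.86 Mb in scrambled LPS, 2.81 Mb in shWdr82 untreated and 9.81 Mb in shWdr82 LPS. After LPS, shWdr82 exceeded scrambled by 41.8 percentage points (39.7 to 43.8): 1671 members had a peak in shWdr82 alone of this pair, and 236 in scrambled alone. These are 48.6% and 6.87% of members, and over all Ser2P regions the corresponding shares were 21.3% and 15.9%. Without LPS the difference was 5.97 points (4.32 to 7.62), from 528 members with a peak in shWdr82 alone of the untreated pair (15.4%, against 21.2% of all Ser2P regions) and 323 in scrambled alone (9.40%, against 20.2%). On each of the 20 chromosomes the LPS difference was positive, from 26.5 to 51.6 points. These Ser2P shares describe how the members were selected, since the same peaks put a region on the list.

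**Figure D1:**
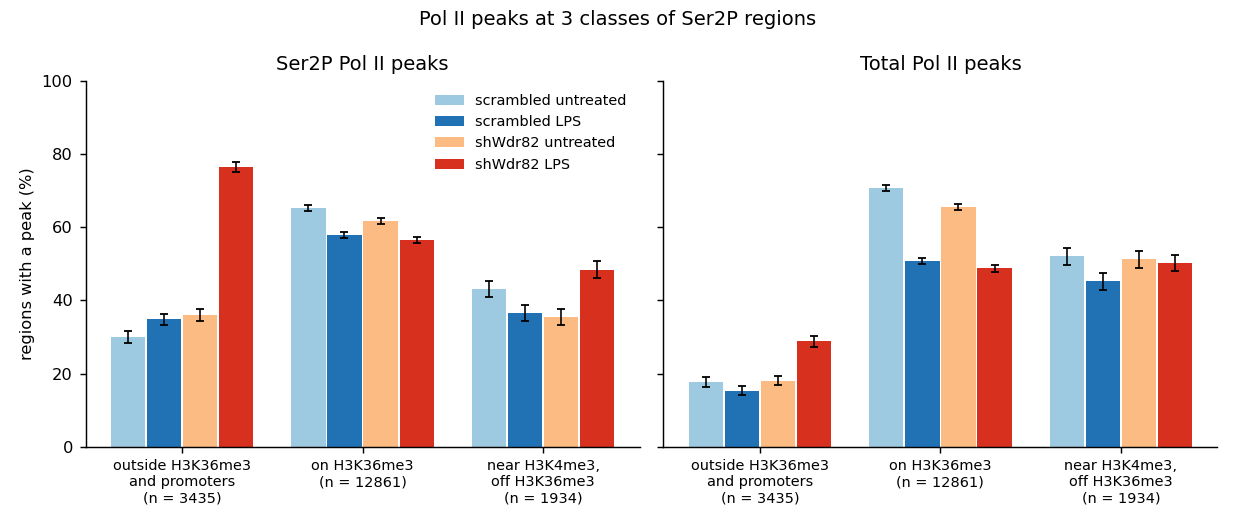
Share of regions with a Ser2P peak (left) or a total Pol II peak (right), in percent, for members and for Ser2P regions on H3K36me3 or near H3K4me3. Each bar is 1 library and error bars are exact 95% binomial intervals for counting error. At members the shWdr82 LPS bar reaches 76.6% for Ser2P and 28.8% for total Pol II, above the other 3 bars in both panels. The classes were drawn with Ser2P peaks, so the left panel describes the selection.

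The size of the Ser2P difference after LPS rested on the shWdr82 LPS library being among those that selected the regions. When the rule was applied to the other 3 libraries, 2027 regions were kept, and the left-out shWdr82 LPS library held a peak at 60.3% of them against 60.7% in scrambled LPS, a difference of -0.39 points (-2.48 to 1.69) in which scrambled LPS was still used by the rule. When both LPS libraries were left out, 1613 regions were kept from the untreated pair. Of those, 57.7% held a Ser2P peak in shWdr82 LPS and 50.6% in scrambled LPS, a difference of 7.07 points (4.85 to 9.29). The libraries that chose this set were themselves unequal there, with 83.2% in shWdr82 untreated and 71.2% in scrambled untreated. When each of the other libraries was left out in turn, the left-out library held a peak at 29.1% of the regions for scrambled untreated, 34.7% for scrambled LPS and 32.7% for shWdr82 untreated. The untreated difference of 5.97 points also changed sign, to -0.49 points (-1.99 to 1.02), without the shWdr82 untreated library in the rule. Of those 2027 regions, 228 had a peak in shWdr82 LPS alone of the LPS pair and 236 in scrambled LPS alone, so the excess of 41.8 points was found only with the shWdr82 LPS library in the rule. Cutting the longer Ser2P list of each treatment to equal covered length, by its top-scoring peaks, left 11.1 points after LPS (8.43 to 13.7) at 2626 regions. Only the longer list lost its low-scoring peaks, so the lists of a pair then had unlike lowest scores. With the rule on the scrambled libraries alone, the Ser2P difference was -6.86 points after LPS and -7.94 untreated. With the rule on the shWdr82 libraries alone it was 46.1 and 11.3 points. Between these rules on a single hairpin, the sign went with the hairpin whose libraries chose the regions. Choosing on the LPS libraries alone gave 4.45 points (3.005 to 5.886) in the left-out untreated pair. The choosing libraries were again unequal there, with 93.0% in shWdr82 LPS and 43.6% in scrambled LPS.

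Members differed in which libraries held them. The most frequent pattern was a peak in shWdr82 LPS alone, with 1357 members (39.5%, against 17.5% of all Ser2P regions). A peak in both LPS libraries and neither untreated one was found at 408 members (11.9%, against 4.32%), and a peak in all 4 at 337 (9.81%, against 16.2%). The 201 members held by the untreated pair alone made up 5.85% of the list, against 5.01%. Patterns that follow the hairpin in both treatments were fewer: 157 members were held by both shWdr82 libraries alone (4.57%, against 1.43%) and 34 by both scrambled libraries alone (0.990%, against 1.3%). With each pair of lists cut to equal covered length these counts were 82 and 68 of 2626 regions. The pair of patterns that follow neither factor of the design held 60 members (scrambled untreated with shWdr82 LPS, 1.75%, against 0.847% of all regions) and 18 (scrambled LPS with shWdr82 untreated, 0.524%, against 0.501%). Members held by 3 libraries numbered 136 without scrambled untreated (3.96%, against 1.35% of all regions), 97 without scrambled LPS (2.82%, against 1.53%), 78 without shWdr82 untreated (2.27%, against 1.37%) and 72 without shWdr82 LPS (2.10%, against 2.28%). Other members held by 1 library numbered 217 for shWdr82 untreated (6.32%, against 17.9%), 151 for scrambled untreated (4.40%, against 16.6%) and 112 for scrambled LPS (3.26%, against 11.8%). All Ser2P regions include the 11881 low-scoring ones that the score minimum removed, so the compared shares differ in this too. High scores at members of 1 library were found mainly in the shWdr82 LPS library: 114 of its 1357 scored 1000 or more and 27 were at 3100 or more, against 2 of 217 at 1000 or more for shWdr82 untreated and 0 of 151 and 0 of 112 for the scrambled libraries. A member of 1 library passed the score minimum through that library alone, so these scores describe the selection. The same counts over all Ser2P regions were not computed.

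**Figure D2:**
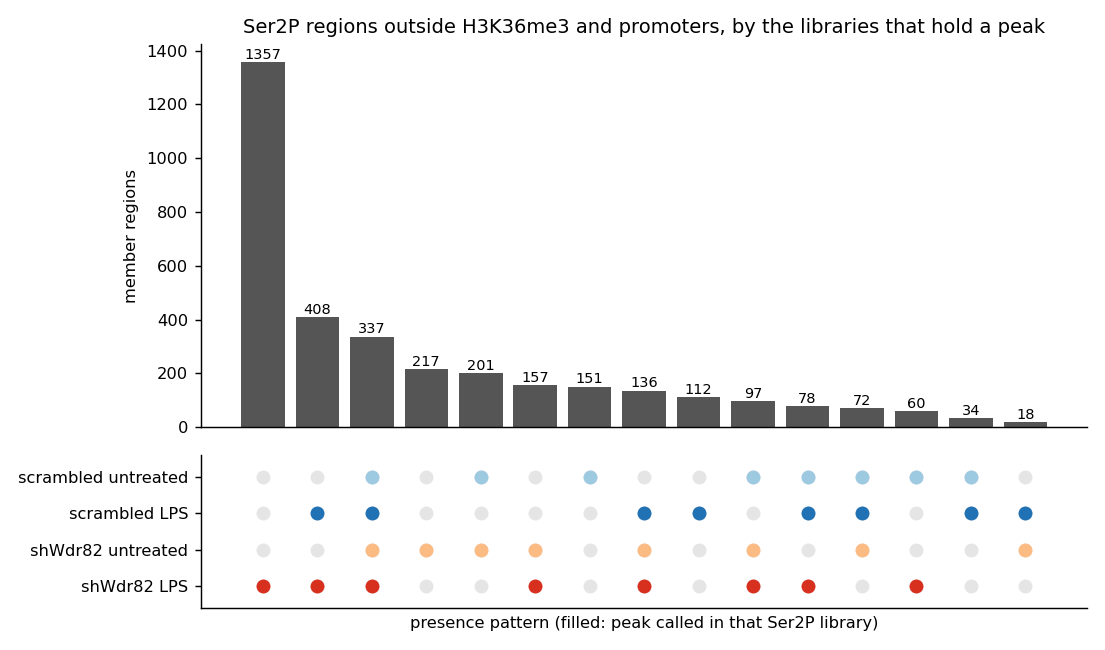
Number of member regions (vertical axis) in each of the 15 presence patterns, with filled circles marking the Ser2P libraries that held a peak. The column for shWdr82 LPS alone stands at 1357 regions and the next, both LPS libraries, at 408.

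The highest-scoring members of each pattern give an idea of the signal behind these counts, with positions on mouse build mm9 counted from 1. Among members held by all 4 libraries, the region at chrX:103358263-103363543 led. Its highest Ser2P score was 3100 in scrambled untreated, 1734 in scrambled LPS, 2322 in shWdr82 untreated and 2971 in shWdr82 LPS. It carried total Pol II in all 4 libraries as well as H3K4me1 and H3K27ac in the control untreated libraries. Among members held after LPS alone, chr12:40914686-40922004 reached 3100 in both LPS libraries. Total Pol II was called there after LPS only, with a score of 611 in scrambled and 3100 in shWdr82. Among members held by the untreated pair alone, chr5:114904418-114912765 scored 1798 in scrambled and 1470 in shWdr82, and total Pol II was again called in the untreated pair only.

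Of the members held by both shWdr82 libraries alone, the region at chr1:84288395-84299728 ranked first, with Ser2P scores of 1314 untreated and 962 after LPS over 9023 and 11138 bp. Total Pol II was nonetheless called there in all 4 libraries, with scores of 257 and 638 in the scrambled untreated and LPS libraries and 323 and 2104 in the shWdr82 ones. The second, chr14:34011054-34023440, had Ser2P scores of 807 and 681 and total Pol II in the shWdr82 pair only, at 129 and 153. Both regions carried H3K4me1 and H3K27ac in control cells. The strongest member held by both scrambled libraries alone, chr1:180188563-180189752, was weaker and shorter: it was 1190 bp wide and scored 149 untreated and 119 after LPS.

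The first members by position among those at the ceiling in the shWdr82 LPS library alone were chr1:80776915-80783191, chr1:90506226-90510718 and chr1:153513965-153525716. All of these had a Ser2P score of 3100 in that library and no Ser2P peak in the other 3. Total Pol II was called at each in shWdr82 LPS alone, with scores of 460, 436 and 1885. They lay 6272 to 23531 bp from the nearest H3K36me3 peak.

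A member without a peak in one LPS library was often far from that library's peaks. For the 1671 members with Ser2P in shWdr82 LPS and not in scrambled LPS, the nearest scrambled LPS peak lay at a median of 19821 bp. It was under 1 kb away for 195 of them (11.7%) and 10 kb or more away for 1049 (62.8%). For the 236 members of the opposite kind, the nearest shWdr82 LPS peak lay at a median of 10655 bp. It was under 1 kb away for 39 (16.5%) and 10 kb or more away for 120 (50.85%). The rule chose the members on Ser2P peaks and away from H3K36me3 and H3K4me3, so these distances carry the selection. The same distances over all Ser2P regions were not computed.

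Ser2P peaks were also wider at members in the shWdr82 LPS library. Where a library held a member, its peaks covered a median of 1840 bp in scrambled untreated, 1739 bp in scrambled LPS, 1640 bp in shWdr82 untreated and 2666 bp in shWdr82 LPS. Covered lengths of 10 kb or more were found at 5 of 1030, 14 of 1195, 14 of 1235 and 136 of 2630 members in the same order. Over all Ser2P regions the medians were 2193, 2219, 1736 and 2780 bp, and the share of 10 kb or more was not computed there. The members were chosen on these peaks, so their lengths carry the selection. At the 959 members held by both LPS libraries the median width was 3109 bp in shWdr82 and 1964 bp in scrambled, with a median log2 ratio of 0.45 (0.39 to 0.50; SD of the 20 chromosome medians 0.15). At least 2 times wider in shWdr82 were 259 (27.0%, against 11.7% of all Ser2P regions held by both), and at least 2 times narrower 22 (2.29%, against 3.38%). The 707 members held by both untreated libraries had medians of 2010 bp in shWdr82 and 2214 bp in scrambled, a median log2 ratio of -0.057 (-0.11 to 0.0035). Here 47 were at least 2 times wider in shWdr82 (6.65%, against 2.99%) and 83 at least 2 times narrower (11.7%, against 8.14%).

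The wider Ser2P peaks after LPS were not limited to members. The median log2 ratio of shWdr82 over scrambled after LPS was 0.11 (0.10 to 0.12) on H3K36me3 and 0.33 (0.25 to 0.41) near H3K4me3, and without LPS it was -0.11 and -0.19. At members held by both libraries of a hairpin, LPS over untreated gave 0.50 in shWdr82 (0.38 to 0.61; n = 727) and -0.0015 in scrambled (-0.093 to 0.044; n = 521). Selecting the regions on the untreated libraries alone gave 0.24 (0.19 to 0.32) for shWdr82 over scrambled after LPS. Leaving only shWdr82 LPS out of the rule gave 0.67 (0.57 to 0.74). Peaks of a left-out library were counted whole and can run beyond a region's borders, unlike at members, so these ratios are not the same measure.

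**Figure D3:**
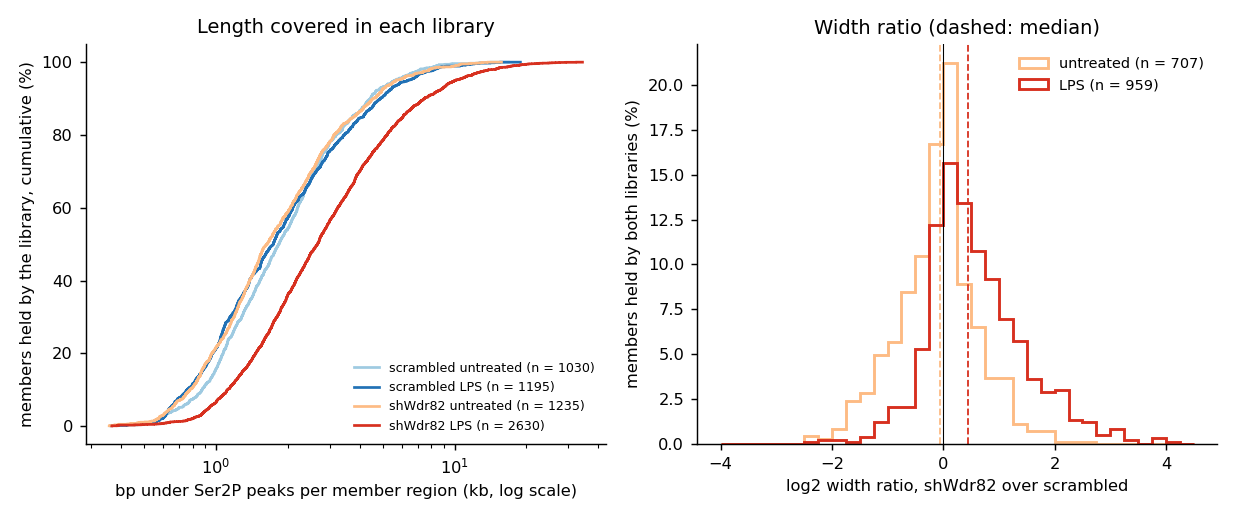
Left, cumulative share (percent) of the members held by each library against the length under its Ser2P peaks (kb, log scale). Right, distribution of the log2 width ratio of shWdr82 over scrambled at members held by both libraries, with dashed lines at the medians. The shWdr82 LPS curve lies to the right of the other 3, and the medians are 0.45 after LPS and -0.057 without.

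The widest members were shWdr82 LPS stretches. At chr2:128082375-128116727 a 34353 bp peak with a score of 2135 was called in that library alone, and so was total Pol II, with a score of 794. At chr2:129350707-129382878, 32172 bp were called in shWdr82 LPS alone, but total Pol II was called there in the other 3 libraries and not in shWdr82 LPS. At chr3:100209759-100238945 the shWdr82 LPS peak spanned 29187 bp with a score of 3100, scrambled LPS had 1140 bp with a score of 51.4, and no total Pol II was called in any library. These 3 regions lay 17332 to 30479 bp from H3K36me3.

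Among the 549 members with scores of 100 or more in both LPS libraries, the greatest widening was at chr3:84429156-84442669, with 13386 bp in shWdr82 LPS against 1814 bp in scrambled LPS (log2 ratio 2.88). This region was already 10464 bp wide in shWdr82 untreated, and scrambled untreated had no Ser2P peak there, while total Pol II was called in all 4. At chr15:57556429-57563248 the widths were 6820 bp against 977 bp (2.80), with total Pol II in both LPS libraries alone. At chr10:66335846-66353285 they were 17440 bp against 2751 bp (2.66), and total Pol II was called in shWdr82 LPS alone. The opposite direction was led by chr8:19939323-19941947, with 689 bp in shWdr82 LPS and 2625 bp in scrambled LPS (-1.93). There the scrambled LPS score was 749 and the other 3 libraries scored 193 to 212.

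Total Pol II was not used to choose the members, and its peaks gave a smaller difference of the same sign after LPS. The antibody recognises polymerase whatever its phosphorylation. A total Pol II peak was called at 607 members in scrambled untreated (17.7%), at 525 in scrambled LPS (15.3%), at 621 in shWdr82 untreated (18.1%) and at 989 in shWdr82 LPS (28.8%). The shWdr82 LPS library stood above the other 3, which lay between 15.3% and 18.1%. After LPS, shWdr82 exceeded scrambled by 13.5 points (12.1 to 14.9), with 570 members called in shWdr82 alone (16.6%, against 6.21% of all Ser2P regions) and 106 in scrambled alone (3.09%, against 4.8%). Members made up 11.4% of all Ser2P regions and 30.5% of those with total Pol II in shWdr82 LPS and not in scrambled LPS. Without LPS the difference was 0.41 points (-0.67 to 1.48), with 185 members called in shWdr82 alone (5.39%, against 3.68%) and 171 in scrambled alone (4.98%, against 6.05%). The LPS difference was positive on each of the 20 chromosomes (7.14 to 21.4 points), and the untreated one was positive on 10, negative on 8 and equal on 2.

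The same LPS difference in total Pol II was -2.07 points (-2.77 to -1.37) at Ser2P regions on H3K36me3, 5.02 (3.40 to 6.63) near H3K4me3 and 1.09 (0.83 to 1.34) at the low-scoring regions. The value at members carries their selection on Ser2P peaks, those of shWdr82 LPS included, and no test over cultures is possible. The difference at members remained positive, at 7.55 points (5.79 to 9.30), when the shWdr82 LPS library of Ser2P was left out of the rule. It was 6.20 points (4.37 to 8.03; 29.8% against 23.6%) at regions chosen on the untreated Ser2P libraries alone. It was 7.66 points (5.66 to 9.65; 33.4% against 25.7%) at the 1763 regions chosen on the scrambled libraries alone. These values are lower by over 1.5 times than the 13.5 points of the members. Each of their intervals overlapped the 3.40 to 6.63 found near H3K4me3 under the full rule.

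Between treatments, total Pol II at members was lower with LPS in scrambled cells, by -2.39 points (-3.81 to -0.96), and higher in shWdr82 cells, by 10.7 points (8.84 to 12.6). Over all Ser2P regions it was lower with LPS in both, by -9.35 points in scrambled and -5.57 in shWdr82. Both values at members moved with the selecting libraries. Without shWdr82 LPS in the rule they were -6.91 points (-9.18 to -4.64) in scrambled and -0.69 (-3.31 to 1.93) in shWdr82, and with the untreated libraries alone -16.9 (-19.4 to -14.5) and -12.4 (-15.3 to -9.53).

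Within each library, total Pol II was called far more often at members that held a Ser2P peak of the same group. The shares with and without such a peak were 45.5% and 5.74% in scrambled untreated, 30.9% and 6.96% in scrambled LPS, 39.7% and 5.95% in shWdr82 untreated, and 36.1% and 4.84% in shWdr82 LPS. This split was not computed over all Ser2P regions, so it is not shown to be particular to members. At least 1 of the 4 total Pol II libraries had a peak at 1540 members (44.8%), and all 4 did at 169 (4.92%, against 17.0% of all Ser2P regions). The other 1895 members (55.2%, against 52.8%) had Ser2P called but total Pol II in none of the 4 libraries.

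The LPS difference in total Pol II can also be set out by the LPS Ser2P calls, which are among the calls that chose the members. At the 1671 members with Ser2P in shWdr82 LPS and not in scrambled LPS, total Pol II was at 29.3% in shWdr82 and 8.74% in scrambled, a difference of 20.6 points (18.5 to 22.7). At the 959 with Ser2P in both it was 48.0% and 35.8%, a difference of 12.2 (9.10 to 15.3). At the 236 with Ser2P in scrambled LPS and not in shWdr82 LPS it was 12.3% and 11.02%, a difference of 1.27 (-3.04 to 5.58). At the 569 with Ser2P in neither it was 1.76% in both. In the set chosen on the untreated Ser2P libraries alone, to which neither LPS library contributed, the 228 regions with Ser2P in shWdr82 LPS and not in scrambled LPS had 22.8% and 7.02%, a difference of 15.8 points (10.7 to 20.8). The 702 with both had a difference of 9.40 (5.79 to 13.0), and the 114 of the opposite kind one of -1.75 (-7.18 to 3.67).

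Total Pol II is given here by Ser2P pattern as a description only, since a member of a pattern passed the rule through the libraries that define it. The 1357 members held by shWdr82 LPS alone had total Pol II at 3.98% in scrambled untreated, 9.14% in scrambled LPS, 3.61% in shWdr82 untreated and 31.2% in shWdr82 LPS. The 408 held by both LPS libraries alone had total Pol II at 4.41%, 30.4%, 4.17% and 47.8%, listed likewise, so both LPS libraries stood above both untreated ones and shWdr82 LPS was highest. The 201 held by the untreated pair alone showed the reverse, with 44.3%, 1.49%, 47.8% and 1.99%. At the 337 held in all 4 libraries the shares were 62.0%, 46.9%, 63.2% and 49.9%, and the LPS difference between hairpins was 2.97 points (-1.96 to 7.89). The 157 held by both shWdr82 libraries alone had 7.64%, 5.73%, 14.0% and 25.5%.

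Total Pol II peaks were compared in width at members with a peak in both libraries of a treatment. The widths are those of whole peaks, which can run beyond a member's borders. After LPS, 419 members had medians of 4287 bp in shWdr82 and 2885 bp in scrambled, a median log2 ratio of 0.58 (0.45 to 0.70). Counted inside the members alone, the same 419 had medians of 3250 bp and 2414 bp, a median log2 ratio of 0.33 (0.22 to 0.43). Over all 6669 Ser2P regions with total Pol II in both LPS libraries the whole-peak ratio was 0.032 (0.024 to 0.045). The whole-peak ratio was 0.31 (0.21 to 0.45, n = 345) without shWdr82 LPS in the rule. It was 0.17 (0.090 to 0.27, n = 314) with the untreated Ser2P libraries alone. Without LPS, 436 members had medians of 2551 bp and 2409 bp (0.050, 0.022 to 0.11), against 0.032 over all regions.

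Members near H3K36me3 and members far from it differed in which libraries held them. The gap to the nearest H3K36me3 peak of any library ran from 2 bp to 5476882 bp with a median of 8787 bp. It was under 5 kb for 1280 members (37.3%) and 20 kb or more for 1125 (32.8%). Within 1 kb of H3K36me3 (481 members) a Ser2P peak was called at 69.2% in scrambled untreated, 55.9% in scrambled LPS, 70.1% in shWdr82 untreated and 64.2% in shWdr82 LPS. From 20 to 100 kb (776 members) the same shares were 8.12%, 20.0%, 12.2% and 90.3%. The 3 other libraries thus held most of the members beside H3K36me3 and few of the distant ones, while shWdr82 LPS held most at every distance. The Ser2P difference after LPS was 8.32 points under 1 kb, 22.9 from 1 to 5 kb, 47.7 from 5 to 20 kb, 70.4 from 20 to 100 kb and 50.1 at 100 kb or more.

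Total Pol II was not used by the rule, but shWdr82 LPS had selected more of the distant members, so its values by distance also carry the selection. Its LPS difference between hairpins was 1.25 points (-2.11 to 4.61) under 1 kb, 9.26 (6.43 to 12.1) from 1 to 5 kb, 16.0 (13.4 to 18.6) from 5 to 20 kb, 20.9 (17.6 to 24.1) from 20 to 100 kb and 16.3 (12.4 to 20.3) at 100 kb or more. Without shWdr82 LPS in the rule the same 5 classes gave 0 (-3.57 to 3.57), 7.77 (4.73 to 10.8), 12.7 (9.24 to 16.1), 10.5 (4.47 to 16.6) and 5.47 points (0.97 to 9.96). With the untreated libraries alone they gave 1.83 (-1.70 to 5.36), 6.79 (3.76 to 9.83), 10.7 (6.69 to 14.6), 9.18 (2.81 to 15.6) and 1.27 points (-3.02 to 5.55). The value under 1 kb was the lowest or near it in each set, and those beyond 20 kb fell by over 1.5 times when the rule left shWdr82 LPS out. The untreated differences lay between -3.53 and 2.63 points over the 5 distance classes, and every interval of theirs included 0. In the class from 20 to 100 kb total Pol II was called at 6.06% of members in scrambled untreated, 13.5% in scrambled LPS, 5.54% in shWdr82 untreated and 34.4% in shWdr82 LPS. Members held by shWdr82 LPS alone lay at a median of 22946 bp from H3K36me3, those held by both LPS libraries at 9761 bp, those held by the untreated pair at 2368 bp and those held by all 4 at 1686 bp.

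**Figure D4:**
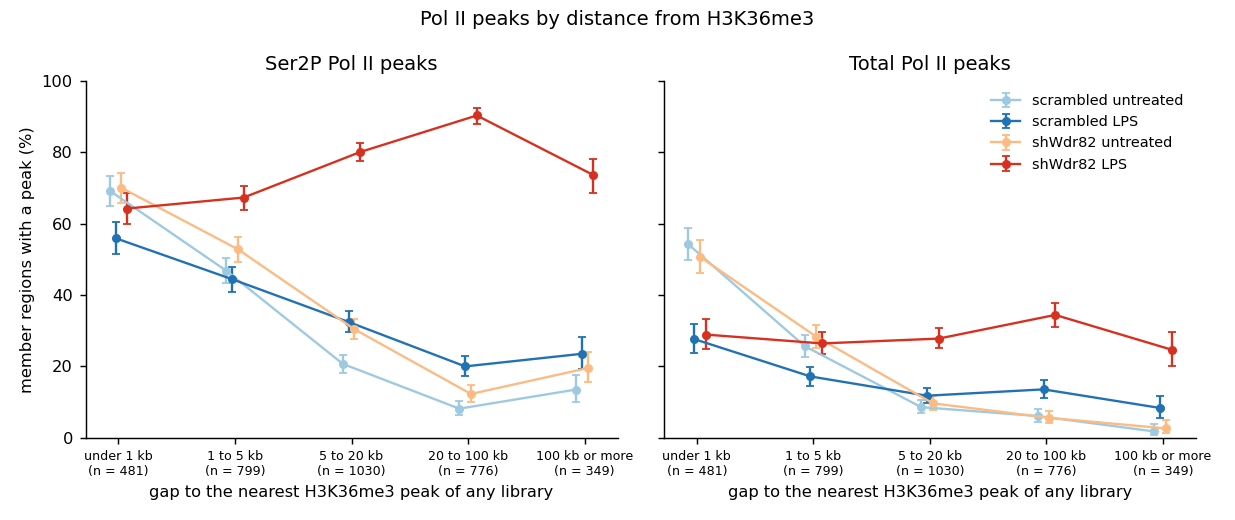
Share of members (percent) with a Ser2P peak (left) or a total Pol II peak (right), by the gap to the nearest H3K36me3 peak of any library. Points are single libraries and error bars exact 95% binomial intervals for counting error. From 20 to 100 kb the shWdr82 LPS library reads 90.3% for Ser2P and 34.4% for total Pol II, while the scrambled LPS library reads 20.0% and 13.5%. The left panel describes the selection, and the right panel carries it through the members chosen.

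The marks that flank a member gave a similar division. Going outward from each member, H3K36me3 was met before H3K4me3 on both sides for 568 (16.5%), on 1 side for 1859 (54.1%) and on neither for 1008 (29.3%). The last group, which had H3K4me3 as the first mark on both sides, held a Ser2P peak at 12.4% in scrambled untreated, 21.6% in scrambled LPS, 18.0% in shWdr82 untreated and 83.4% in shWdr82 LPS. Its total Pol II shares were 5.66%, 11.1%, 5.85% and 31.6%. In the group with H3K36me3 first on both sides total Pol II was called at 134, 108, 142 and 174 of the 568, a narrower spread between the libraries. These shares too are those of members chosen on Ser2P, and no library was left out for this division. Gene models of the build were not used here, so whether a member lies inside a gene that lacks called H3K36me3, past a gene's end or between genes was not analysed here.

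The share of members without enhancer marks was close to that of all Ser2P regions. H3K4me1 marks primed and active enhancers, and H3K27ac marks active enhancers and promoters. Both were called in the control untreated libraries at 427 members (12.4%, 11.4 to 13.6), H3K4me1 alone at 366, H3K27ac alone at 41 and neither at 2601 (75.7%, against 74.3% of all Ser2P regions). No H3K4me1 or H3K27ac peak of any of the 8 libraries touched 2249 members (65.5%, against 68.2%). The share with both marks was 22.6% at Ser2P regions on H3K36me3, 42.5% near H3K4me3, 2.58% at the low-scoring regions and 14.8% over all Ser2P regions. The low-scoring regions are part of all Ser2P regions, so the closeness also depends on that mixture. The share with neither mark was not computed for each class.

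The Pol II differences after LPS were found at members with and without enhancer marks. At the 427 with both marks total Pol II was called at 30.0% in scrambled untreated, 39.8% in scrambled LPS, 30.2% in shWdr82 untreated and 56.9% in shWdr82 LPS, an LPS difference of 17.1 points (12.4 to 21.8). At the 2601 with neither mark it was 16.0%, 10.96%, 16.3% and 23.3%, a difference of 12.4 points (10.9 to 13.9). At regions chosen on the untreated Ser2P libraries alone the differences were 10.9 points (4.30 to 17.4; 138 regions) and 6.37 (4.35 to 8.38; 1304 regions). Ser2P at the members with both marks was called at 17.3%, 32.1%, 30.7% and 84.8%, and at those with neither at 32.1%, 35.2%, 36.8% and 74.9%. The untreated Ser2P difference was 13.3 points (9.06 to 17.6) with both marks and 4.69 (2.77 to 6.62) with neither. That of total Pol II was 0.23 points in both, with intervals that included 0.

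The enhancer marks themselves differed by under 2 percentage points between shWdr82 and control cells at members. H3K4me1 was called at 23.1% in scrambled untreated, 24.6% in scrambled LPS, 24.4% in shWdr82 untreated and 25.8% in shWdr82 LPS, which gives shWdr82 an excess of 1.34 points (0.51 to 2.17) untreated and 1.16 (0.33 to 1.99) after LPS. All Ser2P regions, listed likewise, had H3K4me1 at 23.6%, 24.5%, 22.5% and 23.3%, and the differences there were -1.09 and -1.14 points. H3K27ac was called at 13.6% in empty vector untreated, 17.3% in empty vector LPS, 15.2% in shWdr82 untreated and 16.1% in shWdr82 LPS, with the 4 h of LPS that its titles give. Its difference from the empty vector was 1.57 points (0.98 to 2.17) untreated and -1.22 (-1.87 to -0.58) after LPS, against 0.70 and -0.62 over all Ser2P regions. At the 1357 members held by shWdr82 LPS alone, H3K27ac went from 17.0% without LPS to 24.4% with it in empty vector cells and from 18.8% to 21.7% in shWdr82 cells. At the 408 held by both LPS libraries it went from 16.4% to 25.2% and from 17.9% to 23.8%. At the 337 held in all 4 libraries the same shares were 8.01% and 10.98%, and 7.42% and 10.1%. Other patterns went the opposite way. The 217 held by shWdr82 untreated alone went from 15.2% to 10.1% and from 20.7% to 11.1%. The 157 held by both shWdr82 libraries alone went from 13.4% to 10.8% and from 17.2% to 10.8%. Over all Ser2P regions the shares were 16.9% and 17.7%, and 17.6% and 17.1%. The patterns are made of the Ser2P calls that chose the members.

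Members held by the shWdr82 LPS library, which were the most numerous, stood alone along the chromosome less often than those of the other libraries. With members under 20 kb apart joined into runs, the 2630 of that library formed 1698 runs, of which 42 had 5 or more members, and 44.5% of its members stood alone. Runs of 5 or more numbered 0 for the 1030 members of scrambled untreated, 5 for the 1195 of scrambled LPS and 1 for the 1235 of shWdr82 untreated, with 80.4%, 68.5% and 76.2% of members standing alone. A library with more members gives closer neighbours, and the part of this in the counts was not tested. Runs were not computed over all Ser2P regions or for equal numbers of members.

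The longest run, singled out after its values were seen, held 12 members over 112968 bp at chr6:13759728-13872695. Ser2P was called at 0 of the 12 in scrambled untreated, 2 in scrambled LPS, 1 in shWdr82 untreated and 12 in shWdr82 LPS. It covered 0, 6397, 1014 and 59835 bp of them. Total Pol II was called at 0, 2, 0 and 5 of the 12 in the same order. The stretch between the first and the last member also held H3K4me3 and H3K36me3 peaks in every library of those marks, and the members lay 3125 to 46845 bp from H3K4me3 and 269 to 55720 bp from H3K36me3.

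**Figure D5:**
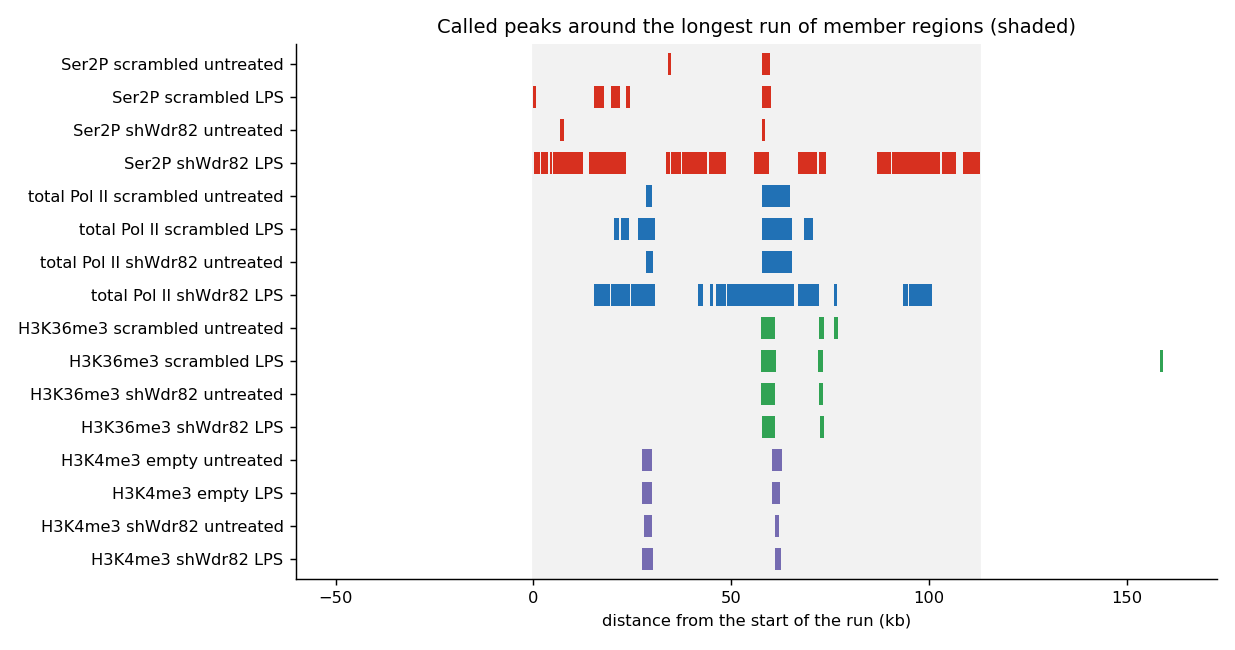
Called peaks of 16 libraries along the longest run of members, with distance from its first base in kb on the horizontal axis and the span of the run shaded. Blocks are called peaks to scale, including those that are no members because they score under 100, lie on H3K36me3 or lie near H3K4me3. The shWdr82 LPS row of Ser2P is filled over 59835 bp of members, against at most 6397 bp in the other 3 Ser2P rows.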

How the data were processed

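ChIP-seq peak lists of 24 libraries (6 antibodies by 2 constructs by 2 treatments) were used as deposited. The submitters' processing notes name Bowtie 0.12.7, MACS 1.4 and build mm9, without their roles. Column 5 of the deposited lists is the authors' peak score. The other columns used are the start and end positions that the authors' peak calling gave in each library separately. Depth and input were not known, so no depth correction was made.

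With Python 3.11.15, pandas 2.3.3 and scipy 1.17.1, Ser2P peaks sharing 1 bp were merged and the rule applied. The interval code was checked on simulated data. Presence means a shared bp, and width is the summed length of a library's peaks at a region. Shares have exact 95% intervals, differences a paired Wald interval and median ratios an order-statistic interval. Regions named by position were the 3 with the highest score, taken as the lowest among the libraries holding them, per pattern, the 3 widest, and the 3 with the largest width ratio in each direction. Not every region so chosen is described. The members, lists and comparisons were chosen with earlier results of these data known. Gene names and sequences were not used, since the tables at hand are for another build. Alternatives covered merging, score, distance, overlap, list length and left-out libraries.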

Additional observations from a re-analysis of the deposited data

Results flagged for a closer look

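At members, 4 pairs of values had opposite signs or stood on opposite sides of 0, and none of these contrasts between conditions was tested, since each group had 1 library. Total Pol II peaks, LPS minus untreated, differed by -2.39 percentage points in scrambled and by 10.7 in shWdr82. Without the shWdr82 LPS library of Ser2P in the rule these became -6.91 and -0.69, and with the untreated Ser2P libraries alone -16.9 and -12.4. Over all Ser2P regions they were -9.35 and -5.57.

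H3K27ac peaks, shWdr82 minus empty vector, differed by 1.57 points without LPS and by -1.22 points with it. The signs were the same over all Ser2P regions (0.70 and -0.62), on H3K36me3 (0.68 and -0.70) and near H3K4me3 (0.67 and -2.02). Ser2P width, as the median log2 ratio of shWdr82 over scrambled, was 0.45 after LPS and -0.057 without. The same ratio of LPS over untreated was -0.0015 in scrambled and 0.50 in shWdr82.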

How the results depend on the processing

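Each of 10 results was recomputed under 15 alternatives, 9 planned and 6 added after seeing the data (equal covered length, untreated libraries only, and each Ser2P library left out of the rule). Of the 150 values, 89 moved by less than their counting error or 1.5 times and 59 moved by more. The other 2 changed sign from a reported interval that excluded 0. Sign changes from an interval that included 0 were counted among the 89 and the 59. Total Pol II untreated, for example, went from 0.41 to -0.51 points with presence from scores of 100 or more. The LPS difference was positive in 14 of 15 for Ser2P, in 15 of 15 for total Pol II and in 15 of 15 for Ser2P width. Only the rule on untreated libraries and the rule without shWdr82 LPS took that Ser2P library out of the choice. All other alternatives kept it, so these tallies carry the selection. The rule on the scrambled libraries alone was not among the 15 and gave Ser2P LPS -6.86 points. The cause was not tested for any value below. No paired analysis was possible because each group has 1 library and the labels give no replicate numbers.

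Joining Ser2P peaks under 1000 bp apart gave 1998 members, a Ser2P LPS difference of 39.6 points, width ratios of 0.67 (LPS) and -0.12 (untreated), 89 members held by both shWdr82 libraries alone and 14.7% with both enhancer marks. No score minimum gave 15316 members, Ser2P LPS 10.4 points, 85 held by both scrambled libraries alone, total Pol II LPS 3.87 points and 4.79% with both marks. A score minimum of 200 gave 1684 members, 82 held by both shWdr82 and 5 by both scrambled libraries alone, total Pol II LPS 19.8 points and 15.9% with both marks. Equal numbers of peaks, taken by score, gave total Pol II untreated 1.86 points. Presence from scores of 100 or more gave Ser2P 47.2 points (LPS) and 2.79 (untreated), width LPS 0.38, 85 and 20 members held by both shWdr82 and both scrambled alone, total Pol II LPS 9.97 points and 10.1% with both marks. Keeping members 5000 bp or more from H3K36me3 gave 2155, Ser2P LPS 56.2 points, widths 0.64 (LPS) and -0.12 (untreated), 92 and 13 members of the same patterns, total Pol II LPS 17.8 points and 14.3% with both marks. Equal covered length gave 2626 members, Ser2P 11.1 points (LPS) and 8.91 (untreated), width LPS 0.53, and 82 and 68 members of the same patterns. The rule on untreated libraries gave 1613 members, Ser2P 7.07 points (LPS) and 11.97 (untreated), width LPS 0.24, 102 and 22 members of the same patterns, total Pol II 6.20 points (LPS) and 1.67 (untreated), and 8.56% with both marks.

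Leaving each Ser2P library out of the rule gave 2027 to 3432 members, Ser2P LPS -0.39 (without shWdr82 LPS) to 45.4 points and Ser2P untreated -0.49 (without shWdr82 untreated) to 10.4 points. Widths ranged from 0.31 to 0.67 (LPS) and from -0.17 to 0.018 (untreated), with peaks of a left-out library counted beyond the region's borders too. Members held by both shWdr82 libraries alone numbered 102 to 157 and by both scrambled libraries alone 22 to 34. Total Pol II ranged from 7.55 to 14.6 points (LPS) and from 0.12 to 1.33 (untreated), and both marks from 9.18% to 12.6%. Unknown read depth limits all presence calls: a region without a called peak may still hold signal.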
